A study of Mus musculus with 16 samples.

Results

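Cholesterol is built from acetyl-CoA through mevalonate, farnesyl diphosphate, squalene and lanosterol. Cells also take it up through receptors of the low-density lipoprotein receptor family. The transcription factors encoded by Srebf1 and Srebf2 switch on the genes of both routes. Scap escorts their precursors out of the endoplasmic reticulum when sterol is low, and Insig1 and Insig2 hold them back when it is high. Heart muscle cells need this pathway for membranes and for the isoprenoid groups that anchor small GTPases.

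The mRNAs of 31 genes of this pathway were followed in an immunoprecipitation experiment on the RNA-binding protein Igf2bp2, which binds mRNAs and affects how long they last and how they are translated. Members were the rows whose single gene symbol was 1 of 32 listed symbols, and all but Sc5dl, an older name of Sc5d, had a row. They gave 33 rows and 31 genes of 20170 single-symbol genes in a table of 35556 rows. By role they were 8 early enzymes (acetyl-CoA to squalene), 9 late enzymes (squalene to cholesterol), 6 regulators and sterol carriers, and 8 receptors of the low-density lipoprotein receptor family with their chaperone.

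All groups were HL-1 cells (mouse atrial cardiomyocytes, an established line), transfected at 10 nM with a scrambled siRNA or with the siRNA named siAirn-001.1 against Airn, a non-coding transcript that runs antisense through Igf2r. RNA was precipitated with anti-Igf2bp2 antibody or control IgG, and labelled with biotin as cRNA for Affymetrix arrays. Each of the 4 combinations of antibody and siRNA had 4 biological replicates, which makes 16 arrays, from a single cell line and a single siRNA sequence. The replicates of each combination fall in separate runs of sample numbers, and whether these sets differ was not tested. The labels give no level of Airn after transfection.

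Each value below is a log2 difference, anti-Igf2bp2 minus IgG precipitate, with 1 siRNA, and a positive value means more signal in the Igf2bp2 precipitate. The header does not name the base of the logarithm, which was taken as 2. Each error is a standard error (SE), worked out from a row's deposited differences and p-values. The number of arrays limits the precision, and single-array values were not used here. The threshold for calling a gene was an adjusted p under 0.05. In such pooled material, fewer cells holding an RNA and less RNA per cell cannot be told apart, and no level of an RNA in the cells is given.

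Igf2bp2 mRNA itself stood at 0.74 ± 0.20 with the scrambled siRNA (adjusted p = 0.0175) and at 1.00 ± 0.20 with the Airn siRNA (adjusted p = 0.0413) per the authors' deposited table. Per the authors' deposited table, the more precise of the 2 Airn rows was not called with either siRNA, at 0.48 ± 0.21 and 0.38 ± 0.21. Its average over both siRNAs, 0.43, was called higher (adjusted p = 0.0229 in a test recovered from the deposited values), as were 35.8% of single-symbol genes. The other Airn row is not given here. Among short lists of cell type markers, the authors' deposited table called 5 of 7 cardiomyocyte genes higher with the scrambled siRNA. Over all single-symbol genes it called 25.5% higher and 17.2% lower, so a count of 1 of 4 lies near these shares. All 4 hepatocyte genes and 1 of 2 proximal tubule genes were called lower with this siRNA per the authors' deposited table, as was 1 of 4 endothelial genes. Leukocyte markers had 1 of 4 higher and 2 lower and fibroblast markers 1 of 4 higher and 1 lower per the authors' deposited table. These are differences between precipitates, so the cell type could not be checked on expression levels, and the part of expression in the results below was not tested.

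The genes are shown first by the sequence before their transcription start, because the array file holds no sequence of the precipitated RNAs. RefSeq promoter windows (mouse assembly GRCm38.p6) were listed for 24 of the 31 genes. No window was listed for Fdps, Fdft1, Sqle, Stard4, Lrp4, Lrp5 or Lrp6. In the 250 bases before the start, the CCAAT box (CCAAT on either strand, read as ATTGG on the other), a site of the factor NF-Y that works beside sterol regulatory elements, was found in 13 of 14 enzymes and in 4 of 5 regulators. Of 5 receptor-class genes 1, Vldlr, held it. Across all 27025 genes with a window the share was 37.5%. The GC box (GGGCGG on either strand), bound by Sp1, was found in 22 of 24 members and in 35.4% of all genes. The E-box CACGTG was found in 5 of 24 members against 6.86%. The pattern TCACNCCAC of a sterol regulatory element was found on either strand in 1 member, Hmgcs1, against 1.22% of all genes. Each motif was searched separately, so matches of different motifs may overlap. A gene counted for a motif if any of its windows held it. The following upstream sequences show the enzyme with the sterol element, the enzyme and the regulator with the highest values, and, for contrast, Lrp1. Lrp1, a large endocytic receptor, held a GC box but no CCAAT box or sterol element in the 250 bases searched. Insig2 has 3 windows, and the window shown is the one that holds its CCAAT matches. All sequences but that of Hmgcs1 are cut to the bases nearest the start. Only CCAAT or ATTGG and the sterol element are in capitals.
Hmgcs1 (chr13:119690101-119690350, plus strand): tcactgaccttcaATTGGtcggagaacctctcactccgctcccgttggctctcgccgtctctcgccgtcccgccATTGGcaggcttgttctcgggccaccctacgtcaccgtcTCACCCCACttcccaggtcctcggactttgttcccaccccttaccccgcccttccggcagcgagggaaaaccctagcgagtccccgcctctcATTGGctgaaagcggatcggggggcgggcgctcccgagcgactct
Idi1 (chr13:8885486-8885605, plus strand): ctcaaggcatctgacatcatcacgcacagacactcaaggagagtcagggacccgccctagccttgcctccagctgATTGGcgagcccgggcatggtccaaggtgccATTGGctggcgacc
Insig2 (chr1:121332590-121332739, minus strand): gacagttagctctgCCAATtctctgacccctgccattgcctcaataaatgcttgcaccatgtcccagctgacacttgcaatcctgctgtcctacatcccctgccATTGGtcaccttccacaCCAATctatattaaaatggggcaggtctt
Lrp1 (chr10:127621149-127621298, minus strand): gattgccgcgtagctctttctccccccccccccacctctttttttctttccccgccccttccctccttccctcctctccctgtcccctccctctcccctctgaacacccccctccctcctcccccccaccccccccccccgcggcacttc
A match is a run of letters and says nothing of binding. Over all genes, values varied with the GC box, less with the CCAAT box and hardly with the sterol element. The 7393 measured genes with a GC box had a median of 0.44 with the scrambled siRNA per the authors' deposited table and the 7561 without one -0.32. Of these genes, 38.1% with a GC box and 17.9% without one were called higher per the authors' deposited table. For the CCAAT box the medians were 0.14 with it (5830 genes) and -0.02 without it (9124 genes) per the authors' deposited table, and 29.3% and 27.0% of these genes were called higher. Genes with and without the sterol element had medians of 0.06 and 0.05 per the authors' deposited table, and 27.2% and 27.9% were called higher. The part of the GC box in the members' values was not tested.

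With the scrambled siRNA, most enzymes of cholesterol synthesis and most of their regulators had more signal in the Igf2bp2 precipitates, and most receptors did not pass the test. The authors' deposited table called 18 of the 31 genes higher and 1 lower, where 20.4% of all rows were called higher and 16.8% lower. Among single-symbol genes these shares were 25.5% and 17.2%. By role, 6 of 8 early enzymes, 7 of 9 late enzymes, 4 of 6 regulators and 1 of 8 receptor-class genes were called higher per the authors' deposited table. The only member called lower was Scap, through 1 of its 2 rows. The median was 0.51 for early enzymes, 0.92 for late enzymes, 0.81 for regulators and 0.20 for receptors per the authors' deposited table, against -0.05 over all single-symbol genes.

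**Figure D1:**
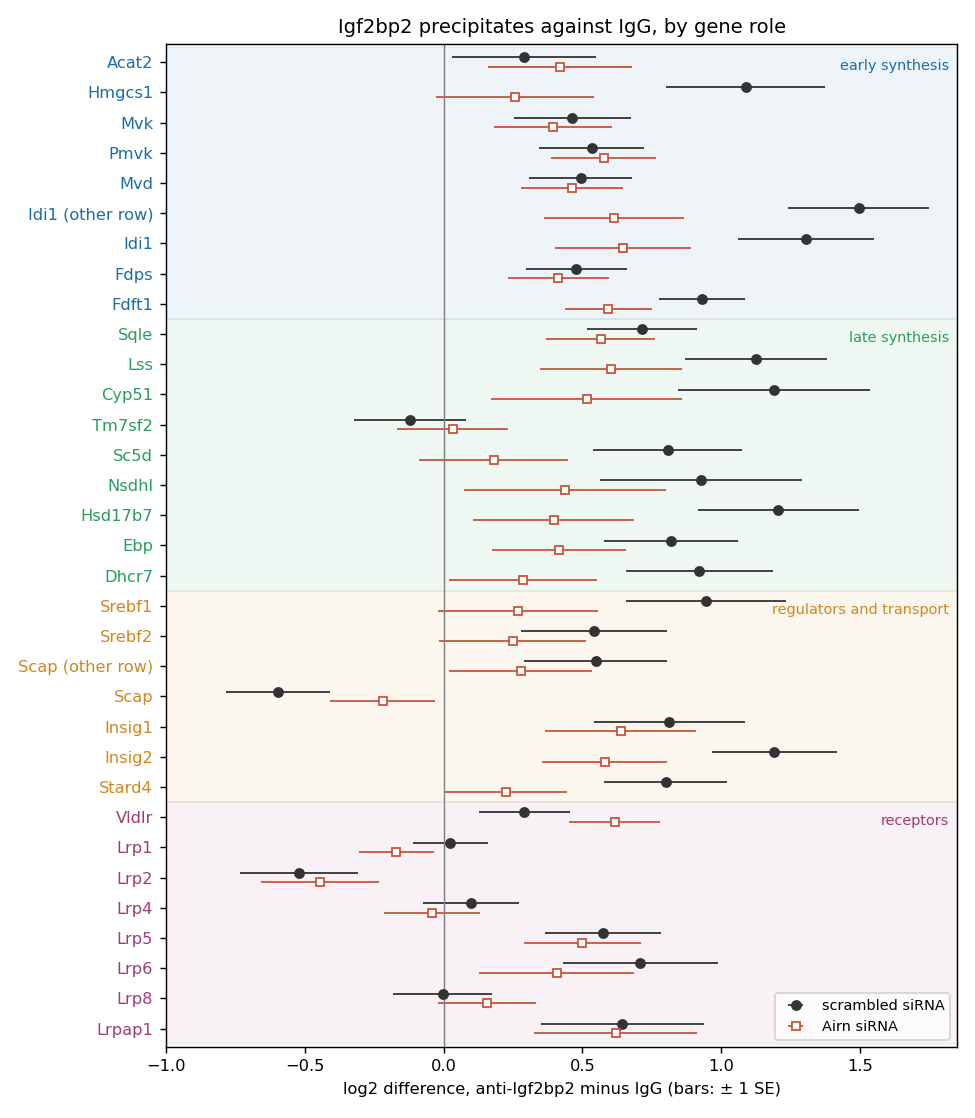
Log2 difference (anti-Igf2bp2 minus IgG) (horizontal axis) for the 33 rows of the 31 genes, ordered by role, with the scrambled siRNA (filled circles) and the Airn siRNA (open squares); bars are 1 SE, and rows marked "other row" are the less precise row of a gene with 2 rows. With the scrambled siRNA enzymes reach 1.31 in the rows used, receptors stay at or below 0.71, and the Scap rows lie on opposite sides of 0.

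Among the early enzymes, Idi1, the isomerase that makes dimethylallyl diphosphate, stood highest at 1.31 ± 0.25 (2.47-fold, adjusted p = 0.00677) per the authors' deposited table. Hmgcs1, which condenses acetyl-CoA units to HMG-CoA, followed at 1.09 ± 0.28 (2.12-fold, adjusted p = 0.0151) per the authors' deposited table. Fdft1, the squalene synthase that commits the pathway to sterols, stood at 0.93 ± 0.16 (1.91-fold, adjusted p = 0.00492) per the authors' deposited table. These 3 genes lie at the entry to mevalonate synthesis, at the isoprene isomerisation and at the first sterol-specific step. Between them, smaller values were given per the authors' deposited table for the kinase Pmvk (0.53, adjusted p = 0.0393), the decarboxylase Mvd (0.49, adjusted p = 0.0469) and the farnesyl diphosphate synthase Fdps (0.48, adjusted p = 0.0494). Those 3 calls lay close to the threshold. Mevalonate kinase Mvk, at 0.46 ± 0.21 (adjusted p = 0.0876), and the thiolase Acat2, at 0.29 ± 0.26 (adjusted p = 0.358), were not called per the authors' deposited table.

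Of the late enzymes, the authors' deposited table listed the highest values for Hsd17b7, a keto-reductase of the demethylation of lanosterol (1.21 ± 0.29, 2.31-fold, adjusted p = 0.0119). The lanosterol demethylase Cyp51 stood at 1.19 ± 0.34 (2.28-fold, adjusted p = 0.0204) and lanosterol synthase Lss at 1.13 ± 0.26 (2.18-fold, adjusted p = 0.0105) per the authors' deposited table. Dhcr7, a reductase of the final steps (0.92 ± 0.27, adjusted p = 0.0201), and the isomerase Ebp (0.82, adjusted p = 0.0217) were called as well per the authors' deposited table. So were the desaturase Sc5d (0.81 ± 0.27, adjusted p = 0.0315) and squalene epoxidase Sqle (0.71, adjusted p = 0.0174) per the authors' deposited table. Nsdhl, which acts with Hsd17b7, had a value in the same range but the largest error among the members, 0.93 ± 0.36, and missed the threshold per the authors' deposited table (adjusted p = 0.0541). The sterol reductase Tm7sf2 was the only enzyme below 0 with this siRNA, at -0.12 ± 0.20 (adjusted p = 0.63) per the authors' deposited table. In all, 8 of the 9 late enzymes stood above 0.7 with this siRNA.

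The regulators split by gene. Insig2, the retention protein whose mRNA is known to be less dependent on sterol than that of Insig1, stood at 1.19 ± 0.23 (2.28-fold, adjusted p = 0.00677) per the authors' deposited table. Insig1 stood at 0.81 ± 0.27 (1.76-fold, adjusted p = 0.0326) per the authors' deposited table. Srebf1, whose product acts mainly on fatty-acid genes, was called at 0.95 ± 0.29 (adjusted p = 0.0238), and Srebf2, whose product acts mainly on cholesterol genes, was not (0.54 ± 0.26, adjusted p = 0.104) per the authors' deposited table. The difference between these paralogues was not tested. Stard4, a carrier that moves sterol between membranes, was called at 0.80 ± 0.22 (adjusted p = 0.0178) per the authors' deposited table.

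Scap had 2 rows with opposite signs. Row 10597134, the more precise, stood at -0.60 ± 0.19 with the scrambled siRNA (adjusted p = 0.0263) and row 10589511 at 0.55 ± 0.26 (adjusted p = 0.0939) per the authors' deposited table. The row identifiers follow the genome: for 95.5% of 16010 single-symbol rows with a clear neighbourhood, at least 75% of the 20 nearest named rows were genes of the same chromosome and strand. Row 10597134 lay among genes of the strand opposite to Scap, and row 10589511 among genes of its own strand. The sources used here do not give the build or the probes of the array, so what row 10597134 measures was not tested. With row 10589511 in its place, no member was called lower. Idi1 also had 2 rows, and the more precise, 10482762, lay among genes of chromosome 2, whereas Idi1 is a gene of chromosome 13. Row 10403413, among chromosome 13 genes, stood at 1.49 ± 0.25 (adjusted p = 0.00492) per the authors' deposited table, so both rows were called. Of the other 29 genes, each with 1 row, none with a clear neighbourhood lay in another one, and Hmgcs1 had no clear neighbourhood for its chromosome.

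Receptors stood lower. Lrp5, a co-receptor of Wnt signalling, was the only one called higher, at 0.57 ± 0.21 (1.49-fold, adjusted p = 0.043) per the authors' deposited table. Its paralogue Lrp6 stood at 0.71 ± 0.28 (adjusted p = 0.0553) and the chaperone Lrpap1, which keeps ligands off newly made receptors, at 0.64 ± 0.29 (adjusted p = 0.0876) per the authors' deposited table. The large endocytic receptor Lrp1 stood at 0.02 ± 0.14 (adjusted p = 0.889), and the reelin receptor Lrp8 at -0.004 ± 0.18 (adjusted p = 0.985) per the authors' deposited table. Lrp4, a receptor of the neuromuscular junction, stood at 0.10 ± 0.17 (adjusted p = 0.641) and Vldlr, which takes up triglyceride-rich lipoproteins, at 0.29 ± 0.16 (adjusted p = 0.156) per the authors' deposited table. Lrp2 (megalin), known from kidney epithelium, was lowest at -0.52 ± 0.21 (adjusted p = 0.0607) per the authors' deposited table. The errors of Lrp1, Lrp4, Lrp8 and Vldlr were among the smaller ones of the members, which ran from 0.14 to 0.36. The difference between receptors and enzymes is a description of these 31 genes and was not tested.

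With the Airn siRNA, enzymes and regulators again lay mostly above 0, at smaller values, and none passed the test. The authors' deposited table called 0 of 31 members in either direction, where 0.63% of all rows were called higher and 0.425% lower. At an unadjusted p under 0.05, 11 members were higher and 0 lower per the authors' deposited table, against 21.3% and 15.9% of single-symbol genes. The medians were 0.44 for early enzymes, 0.42 for late enzymes, 0.26 for regulators and 0.28 for receptors per the authors' deposited table, against 0.01 over all single-symbol genes. All 17 enzymes stood above 0, from 0.03 for Tm7sf2 to 0.65 for Idi1 per the authors' deposited table.

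The smallest adjusted p-values of the members with this siRNA were those of Fdft1 (0.59 ± 0.16, adjusted p = 0.0622) and Vldlr (0.62 ± 0.16, adjusted p = 0.0638) per the authors' deposited table. Pmvk (0.58 ± 0.19, adjusted p = 0.0844) and Sqle (0.56 ± 0.20, adjusted p = 0.0916) came next per the authors' deposited table. Insig1 (0.64), Lrpap1 (0.62), Lss (0.60), Insig2 (0.58), Cyp51 (0.52) and Lrp5 (0.50) also stood at or above 0.5 per the authors' deposited table. Lower values stood per the authors' deposited table for Mvd (0.46), Nsdhl (0.44), Acat2 (0.42), Ebp (0.42), Fdps (0.41), Lrp6 (0.41), Hsd17b7 (0.40) and Mvk (0.39). Dhcr7 (0.29), Srebf1 (0.27), Hmgcs1 (0.26), Srebf2 (0.25), Stard4 (0.22), Sc5d (0.18) and Lrp8 (0.15) were smaller still per the authors' deposited table. Below 0 the authors' deposited table gave Lrp4 (-0.04), Lrp1 (-0.17), Scap (-0.22 in row 10597134) and Lrp2 (-0.45). Vldlr was thus higher, and Hmgcs1 lower, in the order of the members than with the scrambled siRNA.

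**Figure D2:**
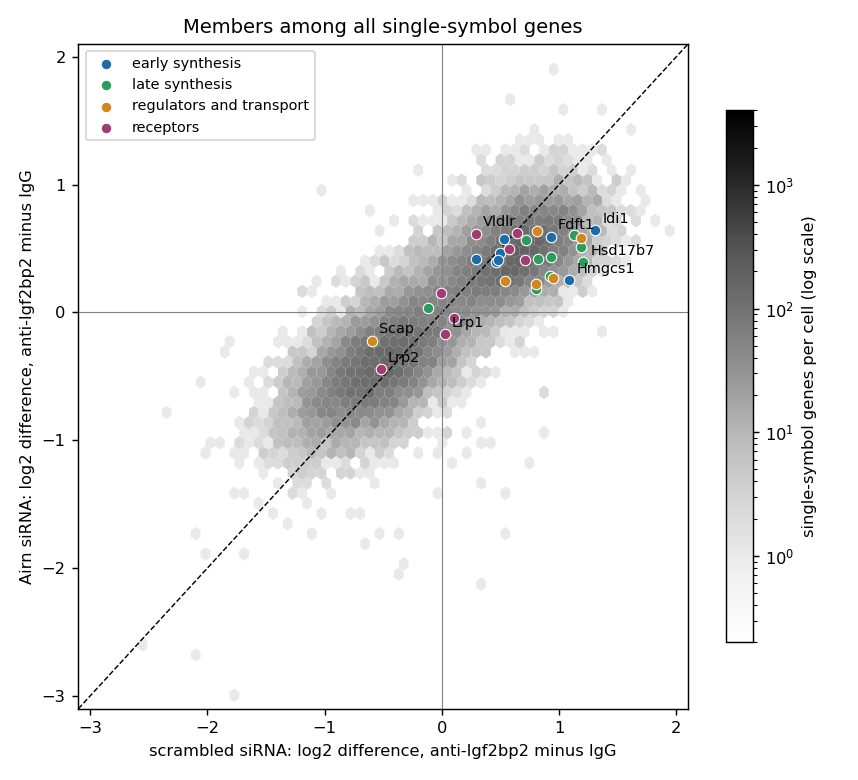
Log2 difference (anti-Igf2bp2 minus IgG) with the scrambled siRNA (horizontal) and with the Airn siRNA (vertical) for the 31 members (coloured by role) over all 20170 single-symbol genes (grey cells, log scale of gene number); the dashed line marks equal values. Most enzymes and regulators lie below the line on the right, with Idi1 at 1.31 and 0.65, while Lrp2 and the Scap row used lie below 0 on both axes.

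The change of enrichment, that is, the value under Airn siRNA less the one under scrambled siRNA, asked whether binding of these mRNAs differed once Airn was targeted. No member passed the test of the change (0 of 31 in the recovered test with Benjamini-Hochberg adjustment over all rows, smallest adjusted p = 0.998), and 0.0% of all rows did. At an unadjusted p under 0.05 the count was also 0 of 31 genes, with 1.6% of single-symbol genes higher and 1.13% lower. Among the 33 rows, Idi1 row 10403413 alone passed that unadjusted threshold, with a change of -0.88 (95% interval -1.64 to -0.12), where 1.93% of all rows passed it on the higher and 1.5% on the lower side. It was singled out after its value was seen.

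With the more precise row for each gene, the largest decreases were those of Hmgcs1 and Hsd17b7, whereas with row 10403413, among genes of its own chromosome, Idi1 (-0.88) came before both. Hmgcs1 changed by -0.83 ± 0.40 (95% interval -1.68 to 0.02, adjusted p = 0.998 in the recovered test), from 1.09 to 0.26 per the authors' deposited table. Hsd17b7 changed by -0.81 ± 0.41 (95% interval -1.68 to 0.06), from 1.21 to 0.40 per the authors' deposited table. Values between -0.68 and -0.52 were found for Srebf1, Cyp51, Idi1, Dhcr7, Sc5d, Insig2, Stard4 and Lss. At the other end stood Scap in row 10597134 (0.38 ± 0.27) and Vldlr (0.33 ± 0.23, 95% interval -0.17 to 0.82). Other genes moved by less than 0.1 in either direction, namely Pmvk (0.04), Mvd (-0.03), Fdps (-0.07), Mvk (-0.07), Lrp5 (-0.07), Lrp2 (0.07) and Lrpap1 (-0.02). Pmvk, Mvd, Fdps and Mvk are enzymes of the mevalonate and farnesyl steps.

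By role, the median change was -0.07 for early enzymes, -0.52 for late enzymes, -0.44 for regulators and -0.05 for receptors, against -0.01 over all single-symbol genes. As means, the changes were -0.23, -0.46, -0.33 and -0.02 in the same order, so early and late enzymes lay closer together. The change lay below 0 in 24 of 31 members and in 51.2% of all single-symbol genes. Of the members, 9 were among the 5% of single-symbol genes with the lowest change: Hmgcs1, Idi1, Cyp51, Sc5d, Hsd17b7, Dhcr7, Srebf1, Insig2 and Stard4. The change contains the scrambled-siRNA value with its error, so genes high there tend to have a low change. Among the 5149 genes called higher with that siRNA, the median change was -0.28 and 14.7% lay among the lowest 5%. For the 18 members called higher, the median was -0.55 and 9 lay there. These counts describe the genes, and whether they differ from the other genes was not tested.

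The intervals bound what could have been missed. For 17 of the 31 genes the 95% interval lay within a 2-fold change in either direction, including 7 of 8 receptor-class genes, 6 of 8 early enzymes, 2 of 9 late enzymes and 2 of 6 regulators. For the others, Hmgcs1 among them, a decrease beyond 2-fold was within the interval. Scap is among the 17 through row 10597134 only, since the interval of row 10589511, from -1.04 to 0.50, reached beyond a 2-fold decrease.

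**Figure D3:**
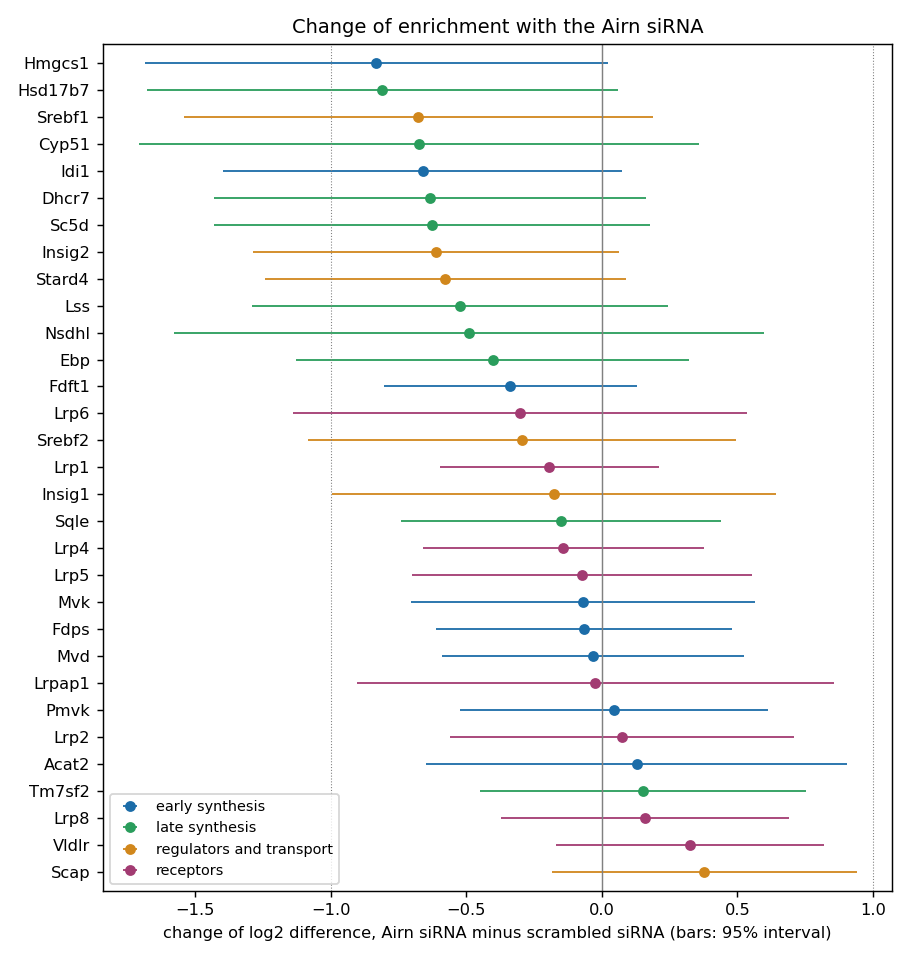
Change of the log2 difference, Airn siRNA minus scrambled siRNA (horizontal axis), for the 31 genes in order of the change and coloured by role, with 95% intervals; dotted lines mark a 2-fold change in either direction. Every interval of the rows plotted includes 0, from Hmgcs1 at -0.83 to Scap (row 10597134) at 0.38. Idi1 is plotted by row 10482762 (-0.66), and its other row, not plotted, stood at -0.88 with an interval of -1.64 to -0.12. Scap's other row is not plotted either, and the lowest 10 genes are Hmgcs1, Idi1, late enzymes and regulators.

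The average over both siRNAs uses all 16 arrays and gave the most precise value per gene. In it 23 of 31 members were called higher and 2 lower, where 29.2% of all rows were called higher and 29.0% lower (35.8% and 30.0% of single-symbol genes). Higher calls covered 7 of 8 early enzymes, 8 of 9 late enzymes, 4 of 6 regulators and 4 of 8 receptor-class genes. With an error correlation of 0.3 between the comparisons, 19 were called higher, and Mvk, Sc5d, Nsdhl and Lrp6 lost their calls. The highest averages were those of Idi1 (0.98 ± 0.17, adjusted p = 0.00165), Insig2 (0.89 ± 0.16, adjusted p = 0.0017), Lss (0.86 ± 0.18, adjusted p = 0.00283) and Cyp51 (0.85 ± 0.24, adjusted p = 0.0101) in the recovered test. Hsd17b7 (0.80) and Fdft1 (0.76 ± 0.11, adjusted p = 0.000875) followed, and these 6 genes lay in the top 10% of single-symbol genes. Insig1 (0.72), Nsdhl (0.68), Hmgcs1 (0.67), Sqle (0.64), Ebp (0.62), Srebf1 (0.61) and Dhcr7 (0.60) were also called higher in the recovered test. Of 30 neighbouring pairs in the order of all 31 averages, 28 lay closer together than their combined SE. Small gaps come with sorting this many genes, so neighbouring ranks are not resolved, and differences between genes were not tested.

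Among receptor-class genes, the averages of the chaperone Lrpap1 (0.63 ± 0.21, adjusted p = 0.0188) and of Lrp6 (0.56 ± 0.20, adjusted p = 0.0258) were called higher in the recovered test. So were those of Lrp5 (0.54 ± 0.15, adjusted p = 0.00863) and Vldlr (0.45 ± 0.12, adjusted p = 0.00631). Lrp2 was called lower (-0.48 ± 0.15, adjusted p = 0.0143). Lrp8 (0.08 ± 0.13), Lrp4 (0.03 ± 0.12) and Lrp1 (-0.07 ± 0.10) were not called and had narrow errors. The receptor-class genes thus fell into 4 above 0, the chaperone among them, 3 near 0 and Lrp2 below 0. Scap row 10597134 was the other lower call (-0.41 ± 0.13, adjusted p = 0.0177), and Acat2 (0.35, adjusted p = 0.104), Srebf2 (0.40, adjusted p = 0.0766) and Tm7sf2 (-0.04, adjusted p = 0.797) did not pass.

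Most genes of neighbouring branches also stood above 0 with the scrambled siRNA, 17 of 19, 17 of 20 and 19 of 23 genes in the lists below, against 48.5% of all single-symbol genes, and no test compared the lists. Calls in them are read against 25.5% of single-symbol genes called higher and 17.2% lower with the scrambled siRNA, and 0.813% called higher with the Airn siRNA. Of 19 measured genes of the isoprenoid branches, which use farnesyl diphosphate for protein prenylation, dolichol and coenzyme Q, 13 were called higher and 0 lower with the scrambled siRNA per the authors' deposited table (median 0.80). Zmpste24, a protease of prenylated proteins, stood at 1.32 and the coenzyme Q methyltransferase Coq3 at 1.16 per the authors' deposited table. Of these 19 genes 2 were called with the Airn siRNA, Ggps1, the geranylgeranyl diphosphate synthase (0.94, adjusted p = 0.0276), and Coq3 (0.93, adjusted p = 0.0465) per the authors' deposited table. Ggps1 stood at 0.90 with the scrambled siRNA per the authors' deposited table. Over the 19 isoprenoid genes the median change was -0.25, with 15 below 0. Over the 31 members it was -0.19, with 24 below 0, and the difference between these lists was not tested.

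Of 20 genes of fatty-acid synthesis and other targets of Srebf1 and Srebf2, 13 were called higher and 1 lower with the scrambled siRNA per the authors' deposited table (median 0.58). Acetyl-CoA carboxylase Acaca stood at 0.89 and the elongase Elovl5 at 1.24, while the desaturase Scd1 was called lower at -1.06 per the authors' deposited table. The elongase Elovl6 stood at -0.95 (adjusted p = 0.051) per the authors' deposited table, and both were called lower in the average over the siRNAs (Scd1 -0.89 and Elovl6 -0.82, adjusted p = 0.0139 and 0.0155 in the recovered test). Of 23 measured genes of sterol transport, storage and sensing, 10 were called higher and 0 lower per the authors' deposited table (median 0.63), with the lysosomal cholesterol exporter Npc1 at 1.16. The cholesterol exporter Abcg1 (-0.44), the ubiquitin ligase Mylip (-0.35) and the acyltransferase Soat2 (-0.29) stood below 0 per the authors' deposited table and were not called. None of these 23 or of the 20 fatty-acid genes was called with the Airn siRNA per the authors' deposited table, and 5 of each list had an unadjusted p under 0.05 on the higher side, a share near the 21.3% of all single-symbol genes. The members' median with the scrambled siRNA, 0.71 per the authors' deposited table, lay between those of these lists.

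**Figure D4:**
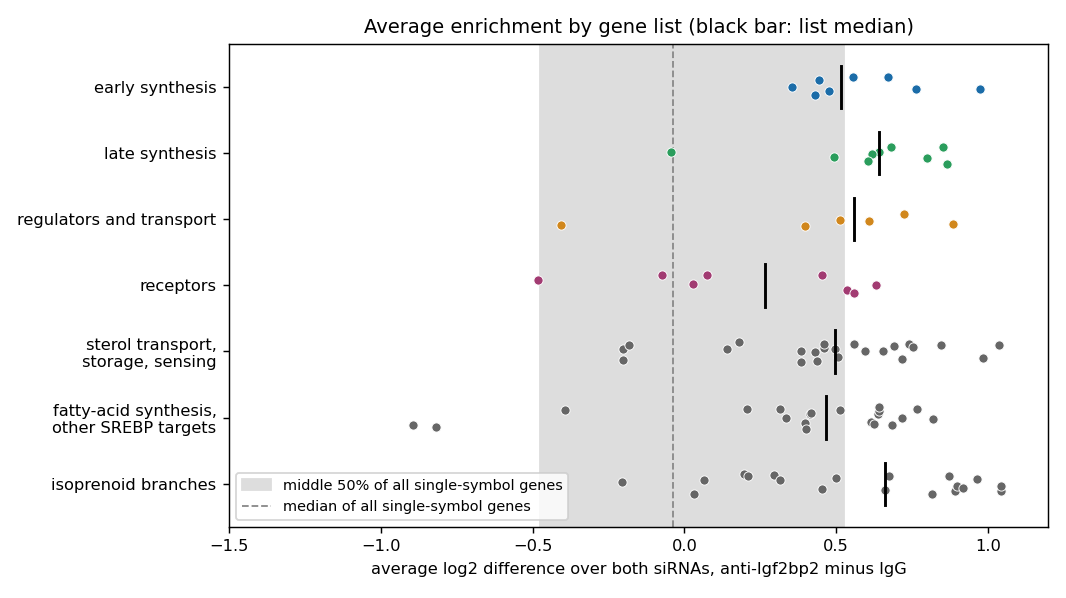
Average log2 difference over both siRNAs (horizontal axis) for the 4 roles of the members and 3 neighbouring gene lists; each point is a gene, black bars are list medians, and the grey band and dashed line give the middle 50% and the median of all single-symbol genes. List medians run from 0.26 for receptors to 0.66 for the isoprenoid branches, all above the median of -0.04 over all single-symbol genes.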

How the data were processed

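Igf2bp2 and IgG precipitates of HL-1 cells were measured on 16 arrays, 4 for each antibody and siRNA. The authors' deposited table gives, per the file headers, differences of anti-Igf2bp2 minus IgG within each siRNA, with p-values and adjusted p-values. The deposited differences were used unchanged and read as log2, a base the headers do not name. The sources used here do not state the array normalization, filters or model. Deposited adjusted p-values matched Benjamini-Hochberg values within 0.000225 where p exceeded 0.001. The file holds comparisons of groups, so no model was fitted to array values. A shared 16.14 degrees of freedom gave the same SE in both comparisons (median disagreement 0.0704% over 29766 rows). SEs are upper bounds for 10 rows, none a member. Change and average took the errors of both comparisons as independent, were tested against t and adjusted over all 35556 rows. The recovery was tested on simulated arrays fitted with limma 3.58.1 in R 4.3.3. Python 3.11.15 and scipy 1.17.1 were used.

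A gene with several rows entered with its most precise row (smallest SE). The rule for named genes was that every member is described, with full statistics for the 3 highest and 3 lowest by average in each role. Members and lists were chosen with earlier results of these data known. Alternatives were other thresholds, rows, centring, adjustment sets and error correlations.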

Additional observations from a re-analysis of the deposited data

Results flagged for a closer look

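Beside the single-symbol row of Fdft1, the table holds 2 rows that carry the symbols of both Fdft1 and the lysosomal protease Ctsb and entered no count of members. Both had a signal above IgG with the scrambled siRNA per the authors' deposited table, at 1.23 (adjusted p = 0.0485) and 0.69 (adjusted p = 0.0309). With the Airn siRNA they stood at 0.77 and 0.20 per the authors' deposited table and were not called. The row of Fdft1 alone stood at 0.93 and 0.59 per the authors' deposited table. Which of the 2 genes the shared rows measure was not tested.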

How the results depend on the processing

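No paired analysis was possible because the table holds comparisons of groups and no values of single arrays, and for the same reason no replicate could be left out. With the scrambled siRNA, 18 members higher and 1 lower became 3 and 0 at an adjusted p under 0.01, and 2 were lower at 0.10. The lower count was 0 with the largest-SE row and 0 with the locus-matched row, which was chosen after seeing the data. With the Airn siRNA, 0 members higher became 2 with all rows centred on their median and 4 at 0.10. In the average, 23 higher and 2 lower became 12 and 0 at 0.01, and 1 was lower with the largest-SE or the locus-matched row. No share over all genes was worked out at these other settings, so whether these shifts are particular to the members was not tested. With either of these rows, the change of Idi1 went from -0.66 to -0.88 and Scap turned to 0.55 (scrambled siRNA), 0.28 (Airn siRNA), -0.27 (change) and 0.41 (average). Centring turned values near 0, namely Lrp8 to 0.10 (scrambled siRNA), Lrp4 to 0.014 (Airn siRNA), and Tm7sf2 to 0.035 and Lrp1 to 0.006 (average). With an error correlation of 0.3, the average called 19 members higher, without Mvk, Sc5d, Nsdhl and Lrp6. Means in place of medians moved the change of early enzymes from -0.07 to -0.23 and of receptors from -0.05 to -0.02. The other counts stayed within 1.5 times, and the change called 0 members under every alternative run, error correlations of 0.3 and -0.3 included. With genes of a single promoter window, an alternative added after seeing the data, the CCAAT share over all genes was 34.7% and no receptor-class gene held it.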
